A study of Mus musculus with 3 samples.

Results

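The mature miRNAs of the miR-199 and miR-214 hairpins were examined in tibialis anterior (TA) muscle, a shin muscle that lifts the foot, before and after cardiotoxin (CTX) injury. Members were taken by name and not by their measured values: the rows mmu-miR-199a-3p, mmu-miR-199a-5p, mmu-miR-199b-3p, mmu-miR-199b-5p, mmu-miR-214-3p and mmu-miR-214-5p. All 6 were listed in each library, among 1138 mature mouse miRNAs. miR-199a-3p and miR-199b-3p are 1 mature form that can come from different genes, and both rows carried the same reads in every library, so they were counted once as miR-199a/b-3p and the members came to 5 mature forms.

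Small RNAs were sequenced from the TA muscle of wild type C57BL/6 mice aged 10 weeks, with day 0 as the baseline and with collection 1 day or 3 days after CTX, a toxin from snake venom, had been injected to kill the muscle fibers. The study treats day 0 as uninjured muscle, while the labels name saline as the control injection and do not say whether the day 0 muscle received it. At each time point 4 samples were pooled, which left 3 libraries and 1 library per time point. No spread between mice could be estimated, so none of the differences given here has a replicate check.

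miRNAs are cut from hairpin precursors, and each hairpin can yield a mature miRNA from its 5′ arm (5p) and another from its 3′ arm (3p). Each mature form pairs with its targets mainly through the seed, bases 2 to 8 from its 5′ end. miR-199 and miR-214 hairpins lie on the strand opposite to the dynamin genes, and the pair on chromosome 1 is carried by the long noncoding RNA Dnm3os, which is known from mesenchymal and skeletal development. In adult tissues both families are associated with fibroblasts and fibrosis, and miR-214 is also known from myoblast differentiation, where it represses the histone methyltransferase Ezh2.

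The mature sequences are shown because the 3p forms have related seeds and because the changes after injury differed between arms. Sequences are from RefSeq for GRCm38.p6, which held 5 of the 6 member names, all but miR-199b-5p, and the seed is in capitals.
miR-199a-5p: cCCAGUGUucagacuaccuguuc
miR-199a/b-3p: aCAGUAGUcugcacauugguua
miR-214-5p: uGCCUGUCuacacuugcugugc
miR-214-3p: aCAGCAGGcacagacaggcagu
The seeds of miR-199a/b-3p and miR-214-3p shared 5 of 7 bases and differed by U5C and U8G, with the base of miR-199a/b-3p first and positions counted from the 5′ end. They are therefore separate seed families, and the seeds of miR-199a-5p and miR-214-5p matched neither of them nor each other. The seed of miR-199a/b-3p was found in no other RefSeq mouse miRNA of the table. That of miR-214-3p was shared with miR-761, which was not listed under that name in the libraries.

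miR-199a-5p can come from the hairpins Mir199a-1 and Mir199a-2, and miR-199a/b-3p from these and from Mir199b. Mir199a-2 lies at chr1:162217814-162217923 and Mir214 at chr1:162223368-162223477, both on the plus strand of GRCm38.p6. Between them are 5444 bases, and in the GENCODE M21 annotation both hairpins lie whole in an exon of Dnm3os, on its strand, and in an intron of Dnm3 on the opposite strand. Mir199a-1 (chr9:21496495-21496564, minus strand) lies opposite an intron of Dnm2, and Mir199b (chr2:32318460-32318569, plus strand) opposite an intron of Dnm1. Reads of miR-199a/b-3p cannot be divided among the 3 miR-199 genes, whereas miR-199b-5p and both arms of miR-214 each have a single source. The neighbouring pair on chromosome 1 is shown with both mature arms in capitals.
Mir199a-2: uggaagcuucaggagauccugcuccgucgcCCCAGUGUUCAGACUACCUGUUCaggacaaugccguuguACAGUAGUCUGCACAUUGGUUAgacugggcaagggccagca
Mir214: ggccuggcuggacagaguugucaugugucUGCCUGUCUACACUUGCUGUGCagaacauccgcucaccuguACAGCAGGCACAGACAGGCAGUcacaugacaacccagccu

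Library totals were 8507580 reads (day 0), 6421056 (day 1) and 9795076 (day 3). A level of 3 reads, taken as the limit of detection, was 0.306 to 0.467 CPM (counts scaled to a library total of 1000000 reads), and every member was far above it. Intervals are exact 95% binomial intervals for levels, shares and folds and cover counting error only, since each day has 1 library. They take reads as independent. PCR copies of 1 molecule are not, so the intervals can be too narrow even for counting error. The myofiber miRNAs, which define this tissue, were present as labelled. Their 9 rows went from 27.5% of the day 0 reads to 9.21% of those of day 1 and 27.8% of those of day 3. These shares include both of the identical rows of miR-486a-5p and miR-486b-5p. The part of each library that was left to other miRNAs thus changed between days. The share of day 3 rested mostly on miR-206-3p of regenerating fibers, with 18.0% of the reads. On that day 4 of the 8 distinct myofiber miRNAs were at least 2-fold below day 0.

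The 5 forms together took 0.208% of the day 0 reads, 0.380% of the day 1 reads and 0.640% of the day 3 reads. Most of these reads came from miR-199a-5p and miR-199a/b-3p in every library, with miR-214-3p next and miR-199b-5p and miR-214-5p lowest. After injury miR-214-3p was already 8.12-fold higher in CPM on day 1 and stayed there on day 3. On day 1 this is a log2 fold change of 3.02, which was 1.98 to 2.70 with 5 other scalings. The other arm of its hairpin, miR-214-5p, and both main miR-199 forms were highest on day 3. miR-199b-5p was within 2-fold of day 0 on both days.

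**Figure D1:**
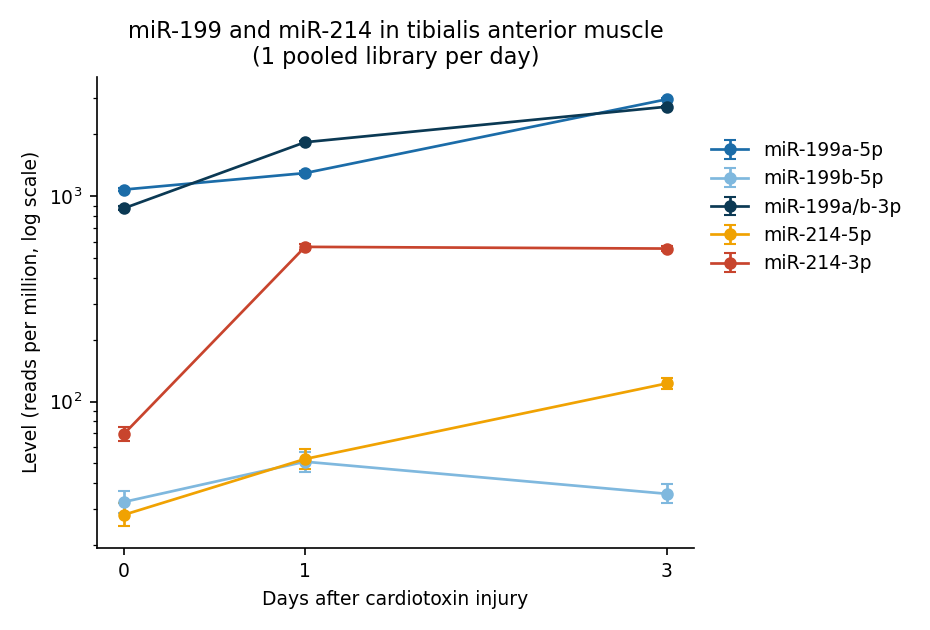
Level of each mature form in CPM (log scale) against days after CTX injury, 1 pooled library per day, with exact 95% binomial intervals as bars. miR-214-3p steps from 69.7 to 566 CPM by day 1 and is at 556 CPM on day 3, whereas miR-199a-5p goes from 1077 to 2963 CPM mostly between days 1 and 3.

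The 5p form of miR-199a was the most abundant member on day 0. miR-199a-5p was read 9160 times at baseline, 8315 times at day 1 and 29019 times at day 3. These were levels of 1077 CPM (95% interval 1055 to 1099), 1295 CPM (1267 to 1323) and 2963 CPM (2929 to 2997). Its day 1 level was close to that of day 0, and the step came between days 1 and 3. Among all miRNAs it ranked 51, 61 and 35 in the order of the days.

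miR-199b-5p is the one form that can come only from Mir199b. Day 0 gave 276 reads of it, day 1 gave 327 and day 3 gave 348. The levels were 32.4 CPM (28.7 to 36.5), 50.9 CPM (45.6 to 56.8) and 35.5 CPM (31.9 to 39.5). On the CPM scale the intervals of days 0 and 3 overlapped, and the day 1 level was above both. With TMM factors (edgeR scaling factors) its log2 fold changes against day 0 were -0.29 on day 1 and -0.80 on day 3. Its rank among all miRNAs went from 182 through 195 to 234.

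For miR-199a/b-3p, the read counts of the 3 libraries were 7431, 11755 and 26699 in the order of the days. The levels were 873 CPM (854 to 894), 1831 CPM (1798 to 1864) and 2726 CPM (2693 to 2759). On the CPM scale this form was higher at each step, but its day 1 difference from baseline was within 2-fold with each of 5 other scalings. It ranked 59, 51 and 36.

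miR-214-3p, the main arm of its hairpin, went from 593 reads in the uninjured library to 3636 a day later and 5442 at day 3. Its levels were 69.7 CPM (64.2 to 75.5), 566 CPM (548 to 585) and 556 CPM (541 to 571). The levels of days 1 and 3 had overlapping intervals, so that on the CPM scale the difference lay between day 0 and day 1. With 5 other scalings its log2 fold change of day 3 against day 1 was -0.11 to 0.30. Its rank moved from 143 to 84 and then 82.

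The minor arm, miR-214-5p, had 239, 337 and 1200 reads in the 3 libraries. This corresponded to 28.1 CPM (24.6 to 31.9), 52.5 CPM (47.0 to 58.4) and 123 CPM (116 to 130). It ranked 190 on day 0 and 192 on day 1, and 152 on day 3.

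In the order of levels on day 0, miR-199a-5p stood above miR-199a/b-3p, then miR-214-3p, and last miR-199b-5p and miR-214-5p, whose intervals overlapped. On day 1 miR-199a/b-3p was above miR-199a-5p, and miR-214-5p and miR-199b-5p again had overlapping intervals. On day 3 miR-199a-5p was back on top, and miR-214-5p was separated from miR-199b-5p.

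The first comparison asked which members differed between uninjured muscle and muscle in the first day of inflammation. A miRNA was called at a fold change of at least 2, the fold threshold of the study, among the 532 miRNAs with at least 10 reads in at least 1 of the 2 libraries. On day 1, 2 of the 5 forms were at least 2-fold higher and 0 at least 2-fold lower, beside 55.3% and 12.0% of all miRNAs tested. miR-214-3p was 8.12-fold higher (95% interval 7.45 to 8.88), a log2 fold change of 3.02 (2.90 to 3.15), and 98 of the 532 miRNAs had a larger value. miR-199a/b-3p, just past the threshold, was 2.10-fold higher (2.04 to 2.16). miR-214-5p, just short of it, was at 1.87-fold (1.58 to 2.21), miR-199b-5p at 1.57-fold (1.33 to 1.85) and miR-199a-5p at 1.20-fold (1.17 to 1.24).

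These values must be read against the other miRNAs of the same libraries. The median log2 fold change of the 532 was 1.28, but these include miRNAs with enough reads on 1 of the 2 days only, and over the 393 with at least 10 reads on both days it was 0.90. The median of the 5 forms, all of which had enough reads on both days, was also 0.90. miR-214-3p, at 3.02, lay above both medians. miR-199a/b-3p, at 1.07, lay between them, and miR-214-5p was at the lower one with 0.90. miR-199b-5p at 0.65 and miR-199a-5p at 0.27 lay below both. With edgeR's TMM factors, which moved the log2 fold changes of day 1 by -0.94, 35.2% of miRNAs were at least 2-fold higher and 24.2% at least 2-fold lower, and miR-214-3p was the 1 member called, at a log2 fold change of 2.08. On this scale miR-199a/b-3p was at 0.12, miR-214-5p at -0.04, miR-199b-5p at -0.29 and miR-199a-5p at -0.68, so the direction of the last 3 on day 1 depended on how the libraries were scaled.

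In the comparison of day 3 with day 0, when myogenic cells proliferate, 4 of the 5 forms were at least 2-fold higher and 0 at least 2-fold lower. Of the 569 miRNAs tested, 58.5% were at least 2-fold higher and 10.0% at least 2-fold lower. miR-214-3p was 7.97-fold higher (7.32 to 8.69), with 127 of the 569 miRNAs above it. miR-214-5p was 4.36-fold higher (3.79 to 5.03), miR-199a/b-3p 3.12-fold (3.04 to 3.20) and miR-199a-5p 2.75-fold (2.69 to 2.82). miR-199b-5p was at 1.10-fold (0.932 to 1.29), an interval that included no difference.

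The median log2 fold change was 1.47 over the 569 miRNAs, 0.93 over the 407 with at least 10 reads on both days and 1.64 over the 5 forms. miR-214-3p at 2.99, miR-214-5p at 2.12 and miR-199a/b-3p at 1.64 lay above both medians. miR-199a-5p at 1.46 lay above the lower one and just under the higher one, and miR-199b-5p at 0.13 lay below both. With TMM factors, which moved the values of day 3 by -0.93, 39.4% of miRNAs were at least 2-fold higher and 22.1% at least 2-fold lower. Both arms of miR-214 kept the call on that scale, with log2 fold changes of 2.07 for miR-214-3p and 1.20 for miR-214-5p. The values were 0.72 for miR-199a/b-3p and 0.53 for miR-199a-5p, which fell short of the threshold, and -0.80 for miR-199b-5p, which changed direction.

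**Figure D2:**
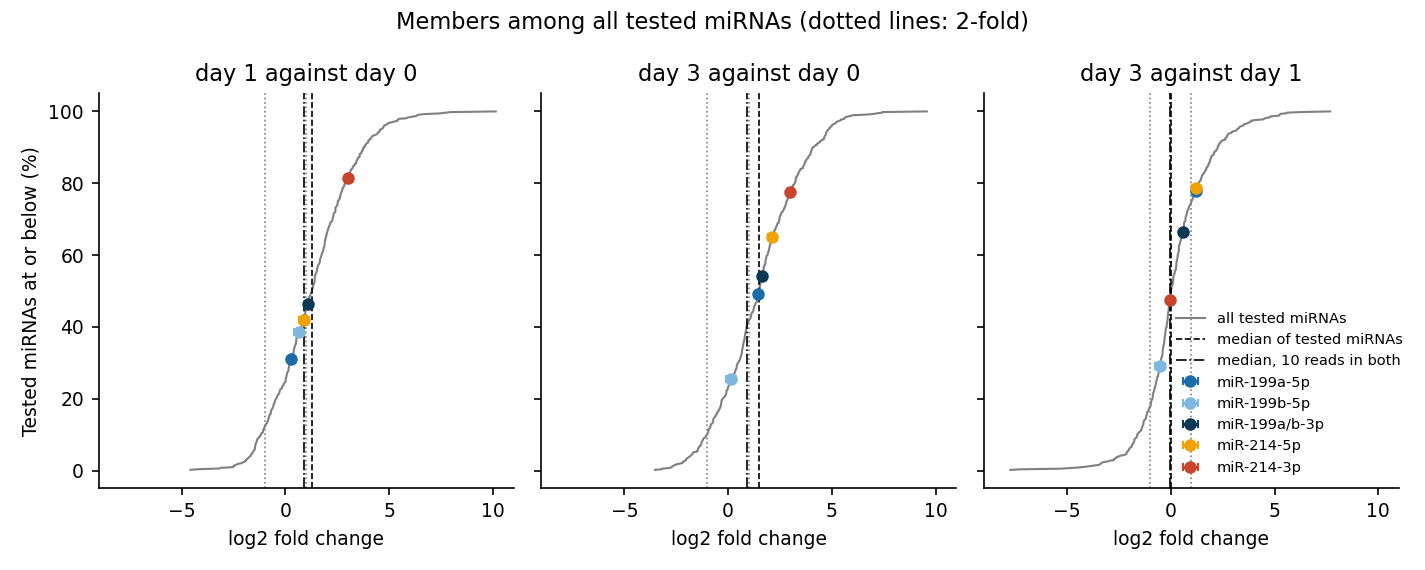
Cumulative curves of the log2 fold changes of all tested miRNAs (grey, % at or below each value on the vertical axis), with the 5 forms as coloured points with 95% counting intervals, a dashed line at the median, a dash-dotted line at the median of those that reached 10 reads in each of the 2 libraries and dotted lines at 2-fold. On day 1 miR-214-3p is to the right of both medians (1.28 and 0.90) and miR-199a/b-3p between them, and on day 3 miR-199b-5p is the one member to the left of the lower median of 0.93.

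Both comparisons share the day 0 library, so days 1 and 3 were also compared with each other. Of the 5 forms, 2 were at least 2-fold higher on day 3 than on day 1 and 0 at least 2-fold lower, beside 25.0% and 17.7% of the 583 miRNAs tested. These were miR-214-5p at 2.33-fold (2.07 to 2.64) and miR-199a-5p at 2.29-fold (2.23 to 2.34). miR-199a/b-3p was at 1.49-fold (1.46 to 1.52) and miR-214-3p at 0.981-fold (0.941 to 1.02). miR-199b-5p was at 0.698-fold (0.598 to 0.814). The median log2 fold change of all miRNAs tested was 0.02, and TMM factors moved it by 0.02. Other scalings moved the members more. Without the myofiber miRNAs in the totals the log2 fold change of miR-199a/b-3p went from 0.57 to 0.90, that of miR-199b-5p from -0.52 to -0.19 and that of miR-214-3p from -0.03 to 0.30, which turned its direction. The calls of miR-214-5p and miR-199a-5p were kept with each of 5 other scalings.

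Ratios between members of 1 library do not depend on its scaling. Of all miR-214 reads at baseline, 28.7% (25.7 to 31.9) were from the 5p arm. This share was 8.48% (7.63 to 9.39) at day 1 and 18.1% (17.1 to 19.0) at day 3. For each read of miR-214-5p there were 2.48, 10.8 and 4.54 reads of miR-214-3p. None of the 3 intervals overlapped, and day 3 lay between the other days. Both arms are cut from the single hairpin shown above.

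In miR-199 the 3p form was also in its largest share on day 1. Day 0 had 44.1% of its miR-199 reads (43.3 to 44.8) in this form, day 1 had 57.6% (56.9 to 58.3) and day 3 had 47.6% (47.2 to 48.0). The shift was smaller than in miR-214, with 0.788, 1.36 and 0.909 reads of the 3p form for each 5p read. Since 3 genes feed the 3p form, this share mixes arm use with the use of the genes. In both families the share of the 3p arm was thus highest on day 1 and had gone part of the way back by day 3.

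Within the 5p forms, miR-199b-5p was a small part that became smaller by day 3. Its share of miR-199 5p reads was 2.92% (2.59 to 3.29) before injury, then 3.78% (3.39 to 4.21) and 1.19% (1.06 to 1.32). For each read of miR-199b-5p there were 33.2, 25.4 and 83.4 reads of miR-199a-5p. How reads of these closely related forms were assigned is not given in the sources used here.

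**Figure D3:**
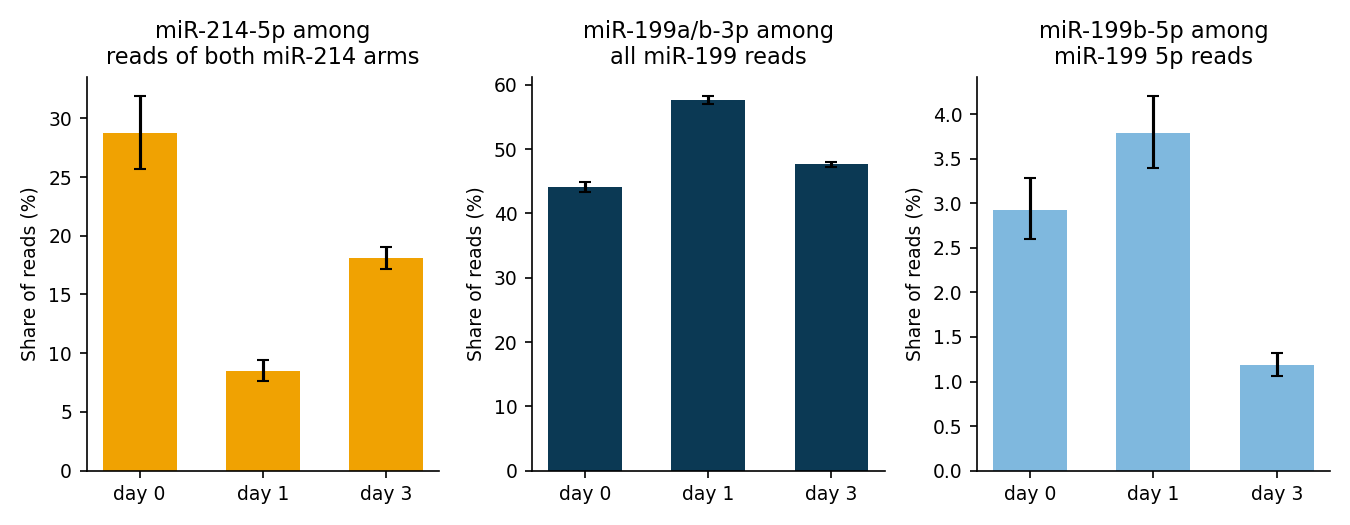
Share of reads (%) by day for miR-214-5p among both miR-214 arms, miR-199a/b-3p among all miR-199 reads and miR-199b-5p among miR-199 5p reads, 1 library per bar with exact 95% binomial intervals. miR-214-5p drops from 28.7% to 8.48% on day 1, and miR-199b-5p is lowest on day 3 at 1.19%.

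Between the families, the share of miR-214 in all member reads was 4.70% (4.39 to 5.02) before injury, 16.3% (15.8 to 16.8) at day 1 and 10.6% (10.4 to 10.8) at day 3. miR-199a-5p held 51.8%, 34.1% and 46.3% of the member reads in the order of the days, and miR-199a/b-3p held 42.0%, 48.2% and 42.6%. miR-214 and Mir199a-2 share the transcript Dnm3os. The reads of the miR-199a forms can also come from Mir199a-1, and how many did was not measured.

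The pairs of log2 fold changes on days 1 and 3 were used to describe likeness among the members and with 221 other miRNAs that had at least 1000 reads over the 3 libraries. With 3 libraries and a shared day 0, each pattern rests on 2 values. Among the members, miR-199a/b-3p and miR-214-5p were nearest to each other, at a distance of 0.51 on the log2 scale, and 14 of the 221 other miRNAs were nearer to miR-199a/b-3p than that. The distance between miR-199a-5p and miR-199a/b-3p was 0.82, and 24 of the 221 were nearer to miR-199a-5p than that. Between the arms of miR-214 it was 2.29, and 113 of the 221 were nearer to miR-214-5p than that.

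Around miR-199a/b-3p, the nearest patterns were those of let-7c-5p at 0.05, let-7b-5p at 0.12, miR-98-5p at 0.22, miR-33-5p at 0.30 and miR-125a-5p at 0.32. The first 3 are members of the let-7 family, which is abundant in differentiated tissues. let-7c-5p had 95904, 157577 and 344987 reads, with log2 fold changes of 1.12 and 1.64.

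The nearest to miR-199a-5p were miR-127-3p at 0.20, let-7f-5p at 0.21, miR-369-3p at 0.33, miR-181b-5p at 0.39 and let-7a-5p at 0.45. miR-127-3p and miR-369-3p come from the imprinted Dlk1-Dio3 region. The reads of miR-127-3p numbered 7452, 7693 and 24790, with log2 fold changes of 0.45 and 1.53.

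For miR-214-3p, the nearest were miR-500-3p at 0.14, miR-15b-5p at 0.33, miR-17-5p at 0.37, miR-320-3p at 0.40 and miR-19b-3p at 0.45. miR-17-5p and miR-19b-3p belong to the miR-17 to miR-92a cluster of proliferating cells. miR-15b-5p had 1330, 10153 and 12896 reads, with log2 fold changes of 3.34 and 3.07. None of the 5 nearest miRNAs was common to any pair of these 3 members.

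Lists of miRNAs typical of other cells of the muscle were set beside the members. In bulk tissue, a change in the number of cells of a type cannot be told apart from a change in RNA per cell, and from which cells the miR-199 and miR-214 reads came was not tested. The shares of all miRNAs called were 55.3% higher and 12.0% lower on day 1 and 58.5% and 10.0% on day 3. Between the days they were 25.0% and 17.7%. With TMM factors they were 35.2% higher and 24.2% lower on day 1, and 39.4% and 22.1% on day 3. The counts of each list are to be read beside these shares and the medians of all miRNAs.

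The vascular wall list held 6 miRNAs, both arms of the endothelial miR-126a and of the smooth muscle miR-143 and miR-145a. On day 1, 4 of 6 were at least 2-fold higher, with a median log2 fold change of 1.23 against 1.28 over all miRNAs tested, and on day 3 none of the 5 with enough reads was past 2-fold, with a median of -0.30 against 1.47. All 6 were at least 2-fold lower on day 3 than on day 1. miR-143-5p is among these 6 and among the 4 called on day 1. It had 9, 39 and 2 reads, and so reached 10 only on day 1. With TMM factors, 1 of 6 was at least 2-fold higher on day 1, and this was miR-143-5p. On day 3, 4 of 5 were at least 2-fold lower, and all 6 were again lower on day 3 than on day 1. The calls against day 0 thus depended on the scaling. miR-126a-3p had 492044, 821327 and 561735 reads, and its log2 fold changes against day 0 were 1.15 and -0.01. miR-143-3p had 291626, 399322 and 243199 reads, at 0.86 and -0.47.

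Of the fibrosis-linked list of 5, 3 were at least 2-fold higher and 1 at least 2-fold lower on each day, a share of higher calls near that of all miRNAs, with median log2 fold changes of 1.41 and 1.72 against 1.28 and 1.47. With TMM factors 2 were higher and 1 lower on each day. miR-21a-5p, which is induced in fibroblasts and macrophages after injury, had 32885, 122768 and 514881 reads, and was at 2.31 on day 1 and 3.77 on day 3. miR-21a-3p, with 28, 2160 and 979 reads, was at 6.68 and 4.92. The other 3 are of the miR-29 family, which represses collagens, and they differed. miR-29a-3p was at 0.40 and 0.42, miR-29b-3p, with 846, 1691 and 3213 reads, at 1.41 and 1.72, and miR-29c-3p at -1.21 and -2.03.

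Of the leukocyte list of 6, 4 were at least 2-fold higher on each day, with medians of 3.96 and 3.57, and with TMM factors the same number were higher and 1 was lower on day 3. miR-150-5p, a lymphocyte miRNA, had 40266, 53339 and 31313 reads and was at 0.81 on day 1 and -0.57 on day 3. For miR-223-3p of myeloid cells the values were 6.32 and 4.28. miR-146a-5p, an NF-kB-induced miRNA, was at 2.54 and 2.87.

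miR-486a-5p and miR-486b-5p carried the same reads and were counted once in the calls of the myofiber list. Of the 7 myofiber miRNAs with enough reads on day 1, 6 were at least 2-fold lower and 0 at least 2-fold higher (7 and 0 with TMM factors). On day 3, 4 of 8 were at least 2-fold lower and 2 at least 2-fold higher (5 and 1 with TMM factors). Of these 2, miR-208b-3p had 4, 1 and 10 reads, and so reached 10 only on day 3. miR-133a-5p, among those lower on day 1, had 20, 7 and 14 reads. miR-1a-3p, the main miRNA of mature fibers, was at -1.66 and -1.41, and miR-206-3p, of regenerating fibers, at -1.37 and 3.86. Both erythroid miRNAs were at least 2-fold higher on day 1 and within 2-fold of day 0 on day 3, with miR-451a at 1.83 and 0.81, but with TMM factors 0 of 2 were past 2-fold on either day. Of the epithelial list, 5 of 6 were at least 2-fold higher on each day, with TMM factors too. Among these 5, miR-200a-3p and miR-141-3p had 9 and 2 reads on day 0 and reached 10 reads only after injury. miR-200c-3p had 38, 1015 and 706 reads. Between days 1 and 3, 1 of 5 fibrosis-linked miRNAs was at least 2-fold higher and 1 at least 2-fold lower. In the leukocyte list 0 of 6 were higher and 3 lower. In the myofiber list 3 of 8 were higher, miR-208b-3p among them, and 1 was lower. Of the erythroid miRNAs 0 of 2 were higher and 1 lower (0 with TMM factors), and in the epithelial list 0 of 6 were higher and 1 lower. The part of blood, skin or other cells in the member levels was not tested.

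**Figure D4:**
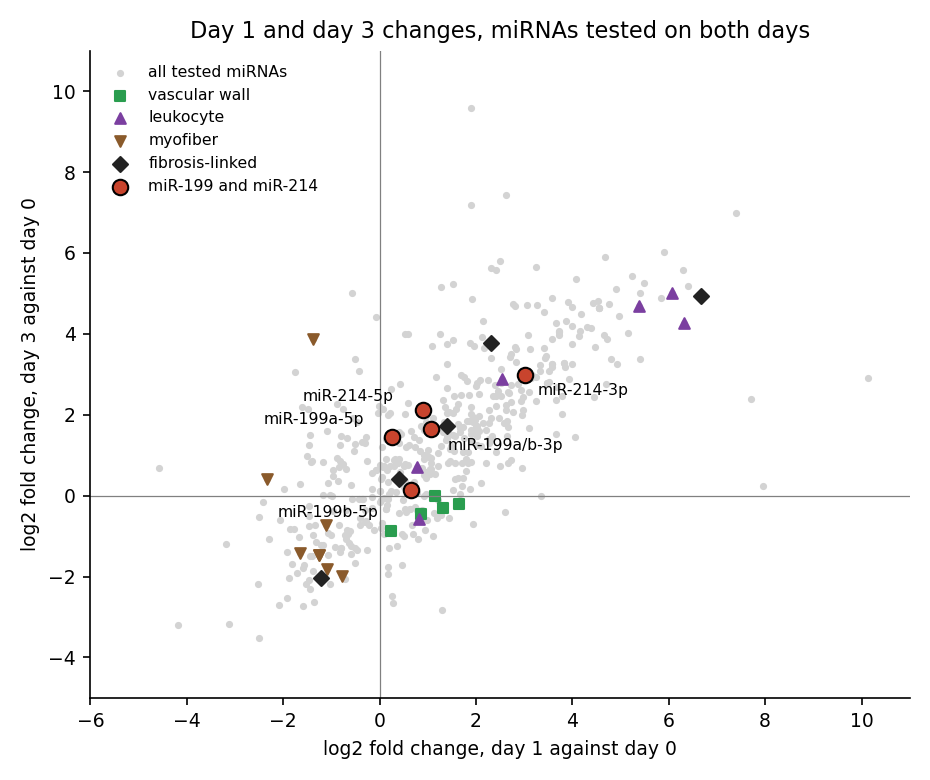
log2 fold change on day 3 against that on day 1, both relative to day 0, for miRNAs tested on both days (grey), the 5 forms (red, labelled) and 4 lists (symbols). miR-214-3p sits at 3.02 and 2.99, and the vascular wall miRNAs lie at or under 0 on day 3.

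The dependence on scaling was followed for each member over 5 other ways to set the libraries on a common scale. These were TMM factors, median-of-ratios factors, totals without the 10 top miRNAs, totals without the myofiber list and the deposited expression values. The last used the deposited values in place of the read counts, and so changed more than the scaling. With these 5, the log2 fold change of miR-214-3p was 1.98 to 2.70 on day 1 and 1.88 to 3.00 on day 3, past 2-fold each time. miR-214-5p on day 3 was 1.01 to 2.13 and also past 2-fold each time. miR-199a/b-3p on day 3 was past 2-fold with 3 of the 5, and miR-199a-5p with 2 of the 5, in 1 of them at 1.00. On day 1, miR-199a/b-3p was 0.03 to 0.74 and past 2-fold with 0 of the 5. miR-199a-5p on day 1 was -0.78 to -0.06, below 0 with all 5, against 0.27 with the file total. On day 3 miR-199b-5p was -0.99 to 0.14, below 0 with 4 of the 5, against 0.13 with the file total.

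**Figure D5:**
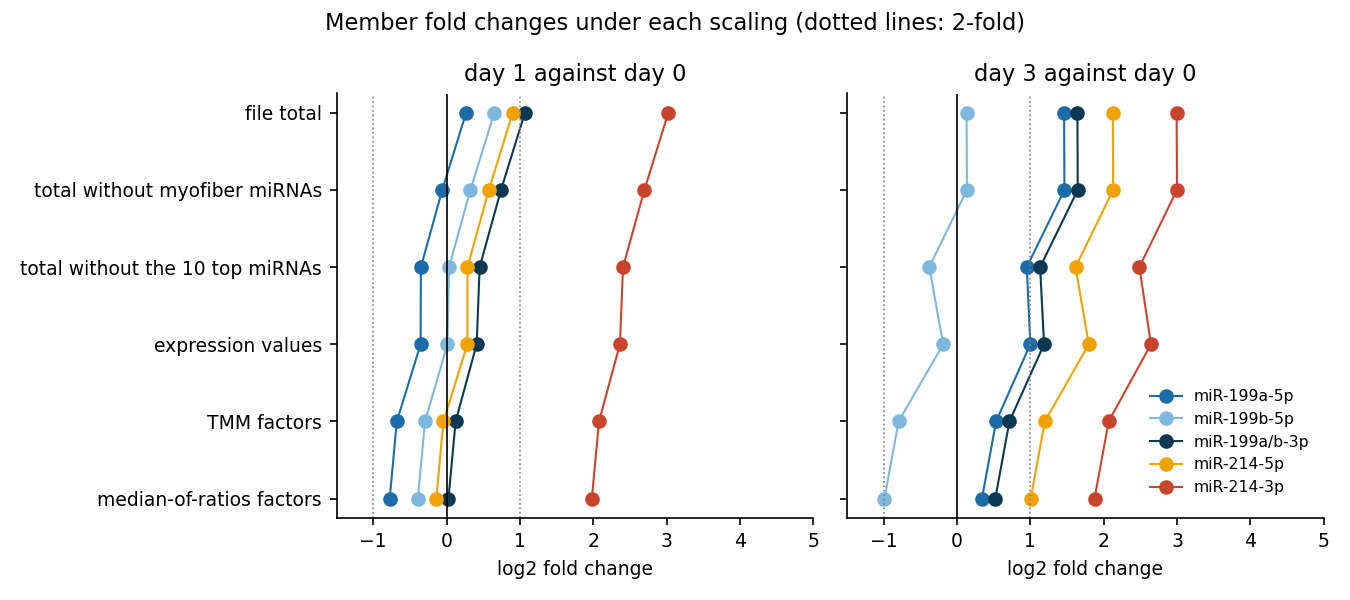
log2 fold changes of the 5 forms on day 1 and day 3 against day 0 under the file total and 5 other scalings (rows), with dotted lines at 2-fold. miR-214-3p is past 2-fold in every row on both days, and miR-199a-5p on day 1 is above 0 with the file total and below 0 in the 5 other rows.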

How the data were processed

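RNAs of 18 to 30 nucleotides from pools of 4 samples were read on a BGISEQ instrument and aligned by the authors to GRCm38.p6. The submitters' processing notes name HISAT and Bowtie2. The authors deposited a read count per mature miRNA, without normalization, and an expression value whose making is not given in the sources used here. This deposited value is treated as a score, since it is a whole number at or below the read count.

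Counts were divided by the total of each library (6421056 to 9795076 reads) to give CPM. At least 5 further rows repeated the read counts of another row, and the 5 that were counted held 0.197% to 0.321% of the totals. With 1 library per time point, calls were made by fold alone and no p-value is given. The exact tests named below, tried as alternatives for the calls, compare libraries and not conditions. Folds have exact conditional binomial intervals, and a side at 0 reads was set to 3 reads. A call was a fold of at least 2 with at least 10 reads in 1 of the 2 libraries. Alternatives were TMM factors of edgeR, median-of-ratios factors of DESeq2, totals without the 10 top miRNAs or the myofiber list, expression values, a pseudocount of 1 CPM, other filters, a fold of 4, Fisher's exact test at an FDR of 0.001, an exact test in edgeR that assumed a CV (coefficient of variation) of 0.4, at an FDR of 0.05, and thinned reads. The fold script was tested on simulated data.

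Members and lists were chosen with earlier results of these data known. Named miRNAs were the members, for each list 1 to 4 of those with the most reads, and the 5 nearest in pattern to each of 3 members. Also named were miR-21a-3p and the list miRNAs with under 10 reads in 1 or more libraries. Python 3.11.15, scipy 1.17.1, pandas 2.3.3, R 4.3.3, edgeR 4.0.16 and DESeq2 1.42.0 were used.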

Additional observations from a re-analysis of the deposited data

How the results depend on the processing

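The number of member forms at least 2-fold higher on day 1 was 2 with the file total and 1 with TMM factors, median-of-ratios factors, totals without the 10 top miRNAs, totals without the myofiber list, the expression values, a fold of 4 or an assumed CV of 0.4. On day 3 it was 4, 3 with totals without the 10 top miRNAs, where miR-199a-5p was at 0.95, and 2 with TMM factors, median-of-ratios factors, a fold of 4 or the assumed CV. Between days 1 and 3 it was 2, and 0 with a fold of 4 or the assumed CV. No form was at least 2-fold lower in any comparison under any setting run. The lowest log2 fold change was that of miR-199b-5p on day 3 against day 0, -0.99 with median-of-ratios factors, just short of the threshold. The share of miR-199b-5p on day 3 was 1.38% in the expression values against 1.19% in the reads, and its other shares, like those of the miR-214 and miR-199 arms, stayed within their intervals. That of miR-214 among member reads was 16.8% on day 1 and 11.8% on day 3 in these values. Of the 5 other scalings, all 5 put miR-199a-5p below 0 on day 1, and 2 of 5 did so for miR-199b-5p and miR-214-5p. On day 3, 4 of 5 put miR-199b-5p below 0. Over the settings, miRNAs at least 2-fold higher numbered 137 to 362 on day 1 (294 with the file total) and 178 to 389 on day 3 (333), and those at least 2-fold lower 5 to 138 (64) and 10 to 141 (57). Between days 1 and 3 they numbered 35 to 179 higher (146) and 12 to 144 lower (103). Counting the 5 repeated rows once in the total, an alternative added after the data were seen, changed no member count. No paired analysis was possible because each time point has 1 library, and for the same reason no library could be left out. The depth limits only the smallest forms, of which miR-214-5p had 239 reads on day 0.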
